A study of Mus musculus with 19 samples.

Results

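The subcortical maternal complex is a set of oocyte proteins that lies under the membrane of the egg and of the early embryo. Its mRNAs were examined here through 8 genes chosen by name, Nlrp5, Ooep, Tle6, Khdc3, Padi6, Nlrp2, Nlrp4f and Zbed3, and all 8 were found among the 25891 genes of the deposited table. The study asked how loss of CPEB3, an RNA-binding protein that recognises elements in the 3′UTR of mRNAs, alters the transcriptome of the mouse oocyte and embryo. The 19 libraries were labelled as 5 Het and 5 KO libraries of MII oocytes, which are mature and arrested before fertilization, and as 5 Het and 4 KO libraries of 2cell embryos. In the KO, the methods describe a floxed CPEB3 allele pair deleted by ZP3-Cre, a Cre that is active in growing oocytes and not in the rest of the animal. The Het retains 1 functional allele, and its alleles are not spelled out consistently, so no wild-type library was compared.

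All oocytes came from BL6 females aged 6–10 weeks that received 5 IU PMSG and, 48 h later, 5 IU hCG. The 2cell embryos were collected 37 h after hCG from zygotes cultured in M16 medium. Their genotype label is that of the mother, and the study describes matings of KO females with wild-type males. Cells were pooled by 5 for each library according to the methods, which also speak of quadruplicates, whereas the labels give 5 libraries in 3 of the groups, and all labelled libraries were used. Neither the methods nor the labels say which libraries came from separate animals. The p values therefore measure the spread between libraries, which may be technical.

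Maternal mRNAs are made while the oocyte grows, and the mature oocyte is transcriptionally silent. After fertilization they are degraded as the embryonic genome is switched on, while proteins of the complex persist. NLRP5 (MATER), OOEP (FLOPED), TLE6 and KHDC3 (FILIA) are its core components, PADI6 is needed for the cytoplasmic lattices of the oocyte, and NLRP2, NLRP4F and ZBED3 are further components. In mice, loss of Nlrp5, Ooep, Tle6 or Padi6 in the mother arrests the embryo at an early cleavage stage.

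The deposited values are FPKM, fragments per kilobase of transcript scaled to the mapped fragments of the library, so that levels of different genes are compared per length. The depth of the libraries, estimated as the depth at which low values best matched whole fragments, ranged from 17.2 to 23.6 M fragments with a median of 19.7 M. At the chosen depths 42.3–47.3% of the low values lay within 0.05 of a whole fragment, where 10% would by chance. The depths and the fragment counts based on them are therefore approximate. CPEB3 mRNA itself was at 0.0755 ± 0.024 FPKM (SD, n = 5) in Het and at 0.162 ± 0.0325 FPKM (SD, n = 5) in KO MII libraries, higher in the libraries labelled KO (two-sided exact permutation p = 0.00794). In the 2cell libraries it was at 0.0303 ± 0.0149 FPKM (SD, n = 5) and 0.0554 ± 0.0129 FPKM (SD, n = 4), again higher in those labelled KO (exact permutation p = 0.0476). All but the KO MII mean are under the 0.1 FPKM that a gene had to reach to be tested across all genes. A gene-level value does not separate deleted from remaining exons, so these values do not settle the genotype, and Het and KO are used below as the labels of the libraries. Summed markers of oocytes (8 of 8 in the table) ranged from 731 to 936 FPKM in Het and from 556 to 668 FPKM in KO MII libraries, and from 131 to 199 and from 107 to 148 FPKM in the Het and KO 2cell libraries. Markers of newly transcribed 2cell genes (8 of 8) summed to 38.0–45.2 and 46.5–62.2 FPKM in Het and KO MII libraries and to 457–839 and 443–629 FPKM in Het and KO 2cell libraries. Markers of cumulus and granulosa cells (10 of 13 in the table) summed to at most 0.914 FPKM in any library. The blood markers in the table (2 of 5, the alpha globins Hba-a1 and Hba-a2) summed to at most 0.428 FPKM in MII and to 46.2–146 FPKM in 2cell libraries, and their part in the results was not tested.

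The 3′ ends of the mRNAs are shown because CPEB proteins bind the cytoplasmic polyadenylation element (CPE), here TTTTAT or TTTTAAT, near the polyadenylation signal AATAAA or ATTAAA. For CPEB3 itself the paper cites a limited affinity for the CPE and a possible affinity for other U-rich elements. Its own motif search included further variants, which were not searched here. Each motif was searched on the sense strand of the annotated 3′UTR of the longest coding transcript (GENCODE vM21, GRCm38), and capitals mark a CPE or a signal. Each window reaches to just past the signal and stops short of the annotated end. Only Zbed3 and Nlrp4f held a CPE of either form searched in the 3′UTR, and Padi6 and Khdc3 stand below for the 6 genes without one.
Zbed3: gcaacactccttttttttTTTTAATAAAct
Nlrp4f: ttgctgctgttttgtgTTTTATATTAAAga
Padi6: gtaaacaaattgccatagagccAATAAAgc
Khdc3: caaacacaatttaaagtattctAATAAAaa

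The Zbed3 window lies at chr13:95337799-95337828 on the plus strand, and the CPE in it overlaps the signal. Its 3′UTR of 1085 bases held 5 CPEs, counted at 8, 18, 157, 195 and 875 bases from its end. The one at 18 is in the window, and the one at 8, downstream of the signal, is not shown in full. The Nlrp4f window lies at chr13:65177132-65177161 on the minus strand, where the CPE directly precedes the signal, and its 3′UTR of 582 bases held 2 CPEs. The Padi6 window (chr4:140727371-140727400, minus strand) and the Khdc3 window (chr9:73104399-73104428, plus strand) lie near the ends of 3′UTRs of 221 and 246 bases. Nlrp5, Tle6 and Nlrp2 had 3′UTRs of 109, 130 and 189 bases with a signal in the last 100 bases, and Ooep had one of 1446 bases without such a signal in its last 100. Of 17161 genes with a coding transcript, 57.6% held a CPE in the 3′UTR, and of 16130 genes with a 3′UTR of at least 100 bases, 18.5% held one in the last 100. The median 3′UTR of all genes had 992 bases, so Ooep and Zbed3 were above and the other 6 members below it. A match of letters is a description and was not tested for binding.

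The genes lie on chromosomes 4, 7, 9, 10 and 13. Nlrp5 (chromosome 7, 23385889–23441922) and Nlrp2 (chromosome 7, 5298547–5351035) share a chromosome, as do Ooep (chromosome 9, 78376109–78378725) and Khdc3 (chromosome 9, 73101836–73104438), and Nlrp4f (chromosome 13, 65177111–65205977) and Zbed3 (chromosome 13, 95323612–95337841). Tle6 lies on chromosome 10 (81590904–81601073) and Padi6 on chromosome 4 (140727355–140742643). Of the stretches of 50 bases in the longest Khdc3 transcript, 42.8% also occur in Gm20509, a gene model that overlaps Khdc3 on the same strand, and Gm20509 was listed at no more than 0.0345 FPKM. For Nlrp5 the share was 8.93%, with its pseudogene Nlrp5-ps among the genes concerned, and for Nlrp4f it was 7.08%, with Nlrp4g and Nlrp4a among them. How the authors' counting divided such reads is not given in the sources used here, so the values of these 3 genes are uncertain to that extent. Nlrp2 overlaps Gm5065 on the opposite strand (5350537–5360682), and reads of the overlap cannot be told apart in an unstranded library.

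The mRNAs of the complex differed widely in level (the plot of FPKM by library). In Het MII oocytes Zbed3 was at 573 ± 76.2 FPKM (SD, n = 5) and ranked 25 among all genes of the table by mean. Ooep followed at 260 ± 36.9 FPKM (SD, n = 5) and rank 57. These 2 mRNAs made up 63.6% and 28.8% of the summed FPKM of the 8 members, a sum of 901 ± 110 FPKM (SD, n = 5).

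Padi6 and Nlrp4f were at 28.5 ± 3.44 and 27.1 ± 5.26 FPKM in Het MII oocytes, and did not differ beyond their spread. Tle6 was at 5.06 ± 1.41 and Khdc3 at 3.74 ± 1.2 FPKM, with overlapping libraries, and Khdc3 in turn overlapped Nlrp5 at 2.66 ± 0.568 FPKM (SD, n = 5 each). Nlrp2 was the lowest at 1.01 ± 0.0753 FPKM (SD, n = 5), below every library of Nlrp5. In KO MII oocytes the order of the means was the same. Tle6 at 6.28 ± 1.3 and Khdc3 at 6.0 ± 0.298 FPKM overlapped, whereas all Padi6 libraries lay above all Nlrp4f libraries and all Khdc3 libraries above all Nlrp5 libraries.

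In 2cell embryos Zbed3 and Ooep remained the 2 highest, at 208 ± 61.6 and 29.5 ± 3.1 FPKM in Het libraries (SD, n = 5). Nlrp4f came next at 8.44 ± 2.52 FPKM, followed by Khdc3 at 2.71 ± 0.777 and Padi6 at 2.41 ± 0.292 FPKM, whose libraries overlapped. Tle6 at 0.856 ± 0.295 and Nlrp5 at 0.739 ± 0.317 FPKM overlapped too, and Nlrp2 at 0.266 ± 0.0485 FPKM was the lowest. In KO 2cell embryos the same pairs overlapped. At the estimated depth, Nlrp2 rests on about 7–23 and Tle6 on about 18–56 fragments per 2cell library, and Zbed3 on at least 5636 in each library.

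**Figure D1:**
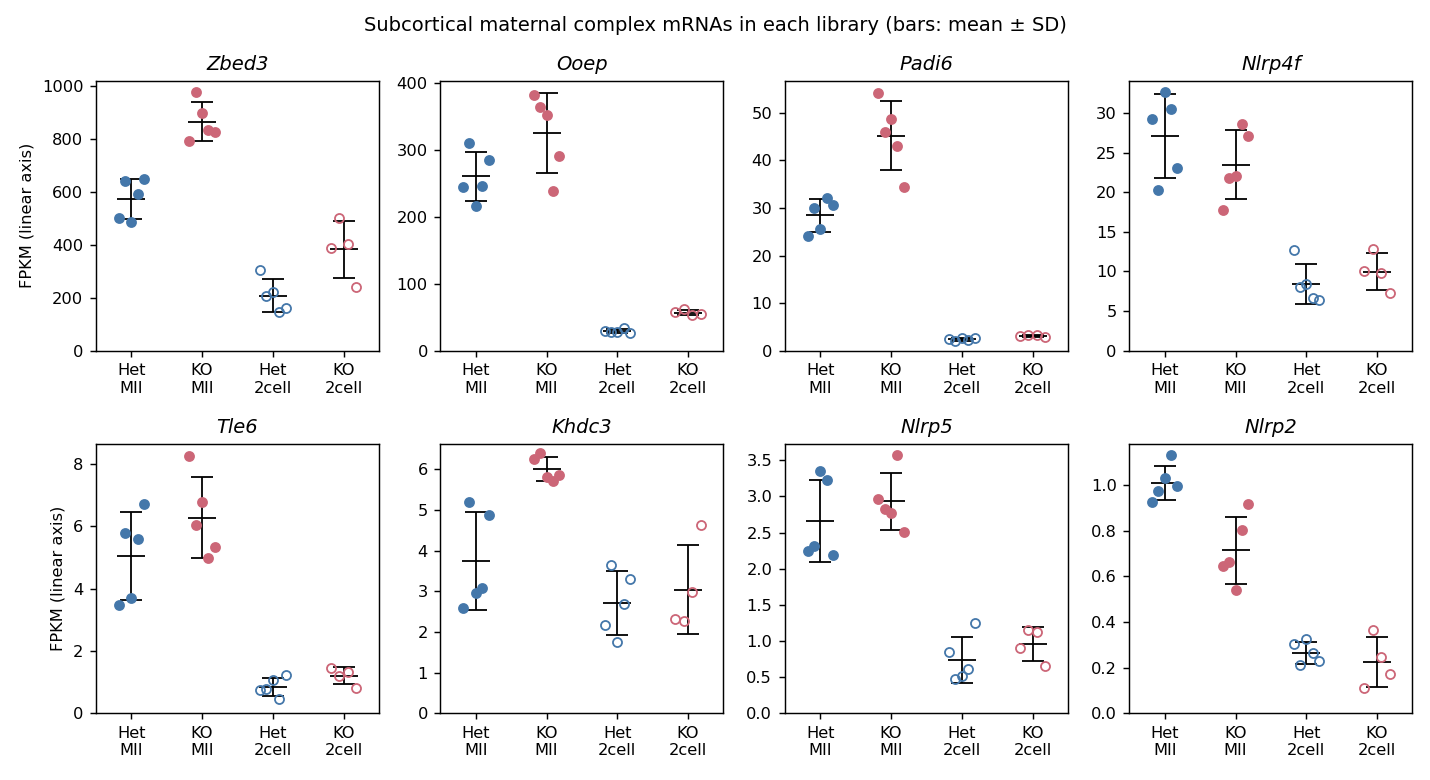
FPKM of the 8 genes in each library (linear axes that differ between genes), with the mean and SD of each group: filled symbols are MII oocytes, open symbols 2cell embryos, blue is Het and red is KO. In MII oocytes Zbed3, Padi6 and Khdc3 are higher in every KO library than in any Het library and Nlrp2 is lower, while in 2cell embryos Ooep and Padi6 are separated in this way.

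The first comparison asked whether mRNAs of the complex differed between KO and Het MII oocytes. Of the 8 members, Khdc3 was higher in KO by the criteria used (limma, Benjamini-Hochberg adjusted p below 0.05 over all tested genes, and more than 1.5-fold), and none was lower. Over all 10515 genes tested, 12.8% passed both criteria, 5.43% as higher and 7.39% as lower. By the adjusted p alone, 4 of the 8 members passed, as did 21.3% of all genes: Khdc3, and at less than 1.5-fold Padi6 and Zbed3, which were higher, and Nlrp2, which was lower. The median log2 fold change was 0.22 over the 8 members and 0 over all tested genes. Of the 8 oocyte markers 1 was lower in KO, Mos, the kinase gene that maintains the MII arrest, at 214 ± 47.8 FPKM in Het and 67.5 ± 12.3 FPKM in KO libraries (SD, n = 5 each). Of the newly transcribed 2cell markers 6 were tested and 3 were higher in KO MII oocytes, Zscan4c, Zscan4d and Zscan4f, at means of 3.37, 9.88 and 0.969 FPKM in KO against 0.544, 1.15 and 0.231 FPKM in Het libraries. Their part in the members' values was not tested.

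Khdc3, an RNA-binding KH-domain protein of the complex, was at 2.58, 5.19, 2.95, 3.08 and 4.87 FPKM in Het libraries A to E and at 6.25, 6.39, 5.81, 5.71 and 5.85 FPKM in KO libraries A to E. The KO libraries lay close together and above all Het libraries, of which A, C and D were low. The log2 fold change on the scaled log2(FPKM + 0.1) scale was 0.62 (SE 0.156, limma adjusted p = 0.0203). This call was lost without Het library A (0.53, adjusted p = 0.0453), C (0.59, adjusted p = 0.0517) or D (0.56, adjusted p = 0.0507), in the limma fit of all 19 libraries (0.61, adjusted p = 0.0788) and with a pseudocount of 1 (0.51).

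Padi6, a member of the peptidylarginine deiminase family, was at 24.2, 30.1, 25.6, 32.1 and 30.7 FPKM in Het and at 54.1, 45.9, 48.7, 43.1 and 34.4 FPKM in KO libraries. All KO libraries exceeded all Het libraries, KO library E by the smallest margin. The log2 fold change was 0.55 (SE 0.104, limma adjusted p = 0.00611), which is 1.46-fold. It passed 1.5-fold without Het library D (0.59) or KO library E (0.63).

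Zbed3, a zinc finger protein of the complex, was at 501, 640, 486, 593 and 648 FPKM in Het and at 792, 977, 897, 832 and 826 FPKM in KO libraries. The 2 groups did not overlap, and Het libraries A and C were the lowest. Its log2 fold change after scaling was 0.49 (SE 0.0953, limma adjusted p = 0.00698), or 1.41-fold. The ratio of the unscaled values is larger, and with the values as deposited Zbed3 and Padi6 were called too (0.60 and 0.66). Scaling factors computed over all 19 libraries were lowest in Het libraries A and C. This comparison used factors computed on the MII libraries alone.

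Nlrp2 was at 0.927, 0.974, 1.03, 1.13 and 0.995 FPKM in Het and at 0.646, 0.663, 0.542, 0.805 and 0.917 FPKM in KO libraries. Each KO library lay below each Het library, KO library E most narrowly. The log2 fold change was -0.56 (SE 0.147, limma adjusted p = 0.0234), and it passed 1.5-fold without Het library B (-0.59) or KO library D (-0.61) or E (-0.66). Gm5065, which overlaps Nlrp2 on the other strand, was at 12.5 ± 2.72 FPKM in Het and 7.84 ± 2.08 FPKM in KO MII oocytes (SD, n = 5 each), and its part in the Nlrp2 values was not tested.

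The other 4 members had overlapping groups in MII oocytes. Ooep was at 244, 310, 216, 245 and 284 FPKM in Het and at 381, 363, 352, 238 and 291 FPKM in KO libraries. The KO libraries A, B and C were above all Het libraries, and D and E were within their range. The log2 fold change was 0.21 with a 95% interval from -0.06 to 0.47 (limma adjusted p = 0.232). It was 0.50 with quantile normalization (limma adjusted p = 0.0366) and 0.30 without KO library D (limma adjusted p = 0.0484), both under 1.5-fold.

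Tle6, a protein related to the Groucho corepressors, ranged from 3.48 to 6.73 FPKM in Het and from 4.98 to 8.26 FPKM in KO libraries, with medians of 5.61 and 6.03 FPKM. Its log2 fold change was 0.22 (interval -0.14 to 0.59). Nlrp5, a large leucine-rich repeat protein, was at 2.19–3.35 FPKM in Het and 2.51–3.57 FPKM in KO libraries, and its log2 fold change was 0.04 (interval -0.33 to 0.41). Nlrp4f was at 20.3–32.7 FPKM in Het and 17.8–28.6 FPKM in KO libraries, and its log2 fold change was -0.31 (interval -0.77 to 0.14). The interval of Nlrp5 does not reach a 1.5-fold difference (log2 0.585), and those of Tle6 and Nlrp4f do.

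In exact permutation tests of the unscaled FPKM over 252 splits, Khdc3, Padi6, Zbed3 and Nlrp2 each reached p = 0.00794, the smallest value that these libraries allow. Among all tested genes, KO libraries lay wholly above Het libraries for 8.71% and wholly below them for 7.57%. The longest transcripts of Khdc3, Padi6 and Zbed3 contain 57.9%, 53.2% and 53.9% GC, that of Tle6 contains 56%, and those of Nlrp2 and Nlrp4f contain 44.7% and 41.8%.

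Across all 10443 genes with a transcript, the log2 fold change in MII oocytes correlated with GC content (Pearson's r = 0.315), and across the 8 members r was 0.833. Genes are not independent replicates, and the points share the same 10 libraries, so no p is given. The deviations of single libraries from the stage mean correlated with GC at -0.376 in Het library A and -0.386 in Het library C, and at 0.377 in KO library A. The other MII libraries ranged from -0.196 to 0.0608 in Het and from -0.0265 to 0.24 in KO. In unscaled FPKM, Het libraries A and C held the 2 lowest Het values of Zbed3, Ooep, Padi6, Tle6 and Khdc3, and C held the highest Het value of Nlrp5 and Nlrp4f. Their scaling factors, computed over all 19 libraries, were the lowest as well (0.872 and 0.838), so the order can differ in the scaled values.

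With the GC trend of each library removed, the MII difference was 0.40 for Khdc3 (limma adjusted p = 0.0444), 0.40 for Padi6 (0.01), 0.33 for Zbed3 (0.0513) and -0.47 for Nlrp2 (0.0259). Each kept its direction and none reached 1.5-fold, so that 0 members were called, while 11.4% of all genes were. Without both Het libraries A and C, a choice made after their values had been seen, none of the 8 passed the criteria and Khdc3 had a log2 fold change of 0.45 (limma adjusted p = 0.113), while the count over all genes fell from 1348 to 533. The part of sequence composition in the difference was not tested beyond these values.

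**Figure D2:**
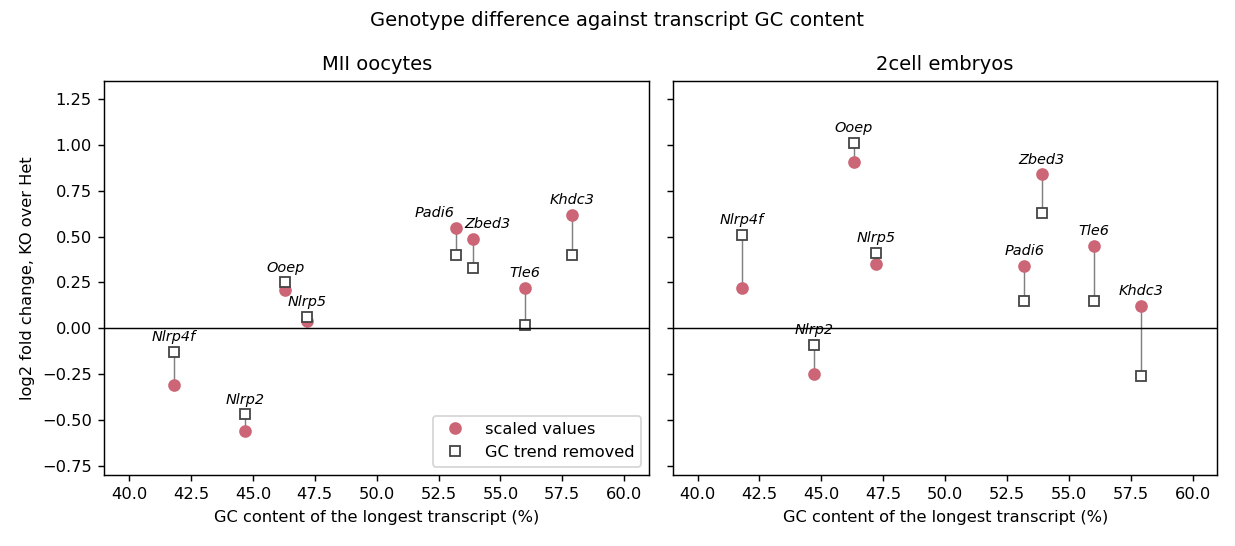
Log2 fold change of KO over Het (y axis) against the GC content of the longest transcript in percent (x axis) for the 8 genes in MII oocytes and 2cell embryos: circles are the scaled values and squares the values after the GC trend of each library was removed. In MII oocytes Nlrp4f and Nlrp2, the lowest in GC, are at -0.31 and -0.56 and Khdc3, the highest, is at 0.62, but Tle6 at 56% GC is at 0.22, and in 2cell embryos Ooep, at 46.3% GC, is the highest under both.

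The second comparison asked the same question in 2cell embryos. Ooep was higher in KO, and no member was lower, where 18% of 14051 tested genes passed the criteria, 8.69% as higher and 9.34% as lower. Ooep, a KH-domain protein of the complex, was at 30.1, 28.6, 27.9, 34.5 and 26.4 FPKM in Het libraries A to E and at 57.9, 61.5, 53.5 and 54.5 FPKM in KO libraries A to D. The lowest KO library was well above the highest Het library. The log2 fold change was 0.91 (SE 0.116, limma adjusted p = 0.00176), or 1.88-fold, and it ranged from 0.84 to 0.97 when each library was left out in turn. With the GC trend removed it was 1.01 (limma adjusted p = 0.00164). The call was lost where the GC correction was combined with a block for the replicate letter (0.97, limma adjusted p = 0.0518).

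Zbed3 was at 304, 206, 221, 147 and 162 FPKM in Het and at 388, 501, 403 and 240 FPKM in KO 2cell libraries. The groups overlapped, since KO library D lay below Het library A. The log2 fold change was 0.84 (SE 0.267) with an adjusted p of 0.0513 in limma, and the exact permutation p of the unscaled values was 0.0238. It passed the threshold in 6 alternatives that differed in scaling, filter or samples, among them a scaling run before the one reported here (adjusted p = 0.0477), and without Het library A (limma adjusted p = 0.0208) or KO library D (0.0269). With the GC trend removed it was 0.63 (limma adjusted p = 0.158).

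Padi6 was at 2.54, 1.95, 2.64, 2.29 and 2.63 FPKM in Het and at 3.07, 3.27, 3.38 and 2.83 FPKM in KO 2cell libraries. All KO libraries exceeded all Het libraries, as was the case for 10.4% of all tested genes, and the exact permutation p was 0.00794. The difference was small, at 0.34 on the log2 scale (SE 0.134, limma adjusted p = 0.105), with an interval from 0.04 to 0.64.

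The remaining 5 members overlapped between the genotypes. Nlrp4f was at 6.39–12.7 FPKM in Het and 7.23–12.9 FPKM in KO libraries, and Khdc3 at 1.76–3.65 and 2.27–4.62 FPKM. The log2 fold changes were 0.45 for Tle6 (interval -0.14 to 1.04), 0.35 for Nlrp5 (-0.29 to 0.98), 0.22 for Nlrp4f (-0.32 to 0.75), 0.12 for Khdc3 (-0.49 to 0.72) and -0.25 for Nlrp2 (-0.81 to 0.30). All 5 intervals include 0. Those of Tle6, Nlrp5, Nlrp4f and Khdc3 contain a 1.5-fold higher but not a 1.5-fold lower level in KO, and that of Nlrp2 contains a 1.5-fold lower but not a 1.5-fold higher level. The direction of Khdc3 turned to -0.26 with the GC trend removed. The median over the 8 members was 0.34 and that over all tested genes 0. Both cumulus and granulosa markers that could be tested in 2cell embryos, Tnfaip6 and Nr5a2, were lower in KO, at means of 0.0905 and 0.1 FPKM against 0.274 and 0.211 FPKM. From MII to 2cell their log2 fold changes were 1.81 and 0.72 in Het and 0.86 and 0.25 in KO libraries, the last not called. Among the untested markers Foxl2 had a higher mean in KO (0.0911 against 0.0331 FPKM) and Kitl a lower one (0.0254 against 0.0816 FPKM). The whole list summed to 0.563–0.914 FPKM in Het and 0.255–0.549 FPKM in KO libraries, and the source of this RNA was not tested. Of the oocyte markers 1 of 8, and of the newly transcribed markers 1 of 8, was lower in KO, and the part of these lists was not tested. Log2 fold changes correlated with GC across all 13933 genes with a transcript (r = 0.36), and across the 8 members r was 0.179. The deviations of single 2cell libraries from the stage mean correlated with GC at -0.247 to -0.0412 in Het and at 0.136 to 0.315 in KO libraries. Their sign thus followed the genotype label in every 2cell library.

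**Figure D3:**
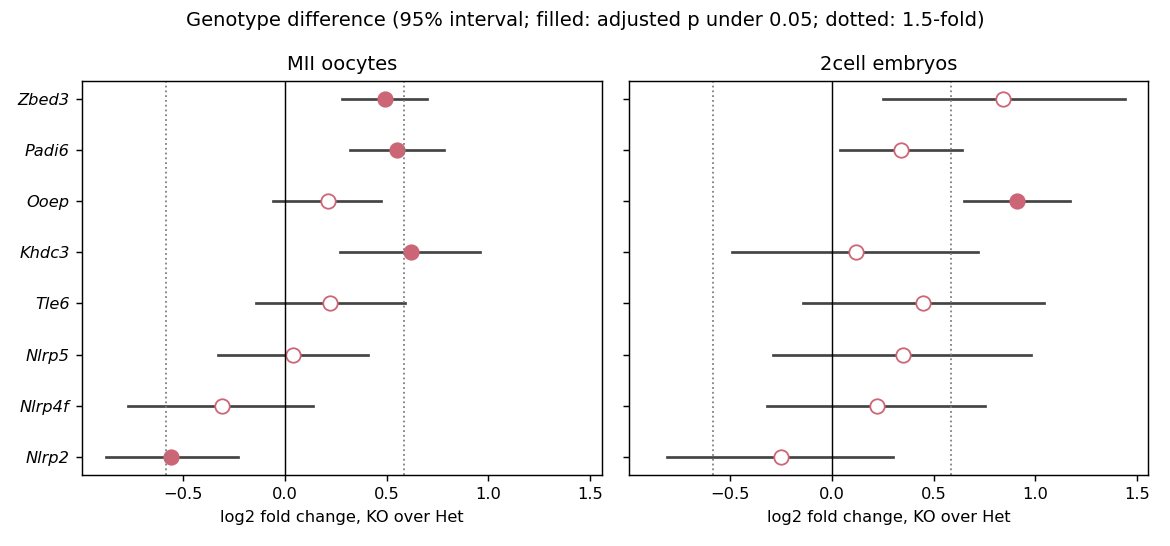
Log2 fold change of KO over Het with its 95% interval for each gene (y axis) in MII oocytes and 2cell embryos (x axis, log2 scale): filled symbols mark an adjusted p under 0.05 and dotted lines mark 1.5-fold. Khdc3 in MII oocytes (0.62) and Ooep in 2cell embryos (0.91) pass both, while Zbed3 and Padi6 (0.49 and 0.55) and Nlrp2 (-0.56) in MII oocytes pass the adjusted p only.

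The third comparison followed each mRNA from the MII oocyte to the 2cell embryo within a genotype. The values are relative to the other mRNAs of the library, so the amount per embryo was not measured, and fewer cells with an mRNA cannot be told apart from less of it in each cell. In Het libraries 7 of the 8 members fell, where 26.7% of 15786 tested genes did. In KO libraries 8 of 8 fell, where 25.6% did, and 7 with a pseudocount of 1, under which Nlrp2 was short of 1.5-fold (-0.50). Over the members the median change was -1.87 in Het and -1.50 in KO on the log2 scale, against 0.26 and 0.27 over all genes tested. All 8 members had separate stages in KO and 7 in Het, as did 23.2% and 22.9% of all genes in the downward direction. Of the 8 oocyte markers 7 fell in Het and 6 in KO libraries.

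The largest fall was that of Padi6, of which 7.93% was left at the 2cell stage in Het and 6.91% in KO libraries. Its log2 fold changes were -3.66 (SE 0.105, limma adjusted p = 1.05e-15) and -3.86 (SE 0.111, limma adjusted p = 1.72e-15). Ooep fell to 10.3% and 17%, and Tle6 to 16.6% and 19.6%, in Het and KO libraries respectively.

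Nlrp5 fell to 26.7% in Het and 33.1% in KO libraries, Nlrp4f to 27.9% and 40.7%, Nlrp2 to 30.1% and 37.5%, and Zbed3 to 31.9% and 41.1%. These shares depend on the scale. With a pseudocount of 1 the log2 change in Het libraries was -0.73 in place of -1.73 for Nlrp2, -1.18 in place of -1.91 for Nlrp5 and -1.79 in place of -2.59 for Tle6, and in KO libraries it was -1.74 in place of -2.35 for Tle6. With quantile normalization it was -2.11 in place of -1.28 for Zbed3 and -2.03 in place of -1.41 for Nlrp2 in KO libraries. With scaling to the column sum, which moved the median of all genes in Het libraries from 0.26 to -0.17, it was -2.29 for Zbed3, -2.47 for Nlrp4f, -3.91 for Ooep, -4.28 for Padi6 and -1.20 for Khdc3. Khdc3 had the smallest change in both genotypes on the scaled values. In KO libraries it fell to 47.5% (log2 fold change -1.08, SE 0.229, limma adjusted p = 0.000391), and in Het libraries it was at 66.8% (log2 fold change -0.58, SE 0.216, limma adjusted p = 0.0218), just short of 1.5-fold and with overlapping stages. That value passed 1.5-fold in 11 alternatives, among them the one with the GC trend removed (-0.82). It was weaker in others, at -0.44 with the values as deposited (limma adjusted p = 0.0908). With a library left out it ranged from -0.70 to -0.44, with a limma adjusted p of up to 0.075. In KO libraries the value of Khdc3 with the GC trend removed was -1.54, and the smallest change there was that of Nlrp4f (-0.99). The shares of the sum changed accordingly: Zbed3 made up 81.5% and 82.9% of the summed FPKM of the members in Het and KO 2cell libraries, and Ooep made up 12.3% and 13%. The sum was 253 ± 63.3 FPKM (SD, n = 5) in Het and 459 ± 112 FPKM (SD, n = 4) in KO 2cell embryos.

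**Figure D4:**
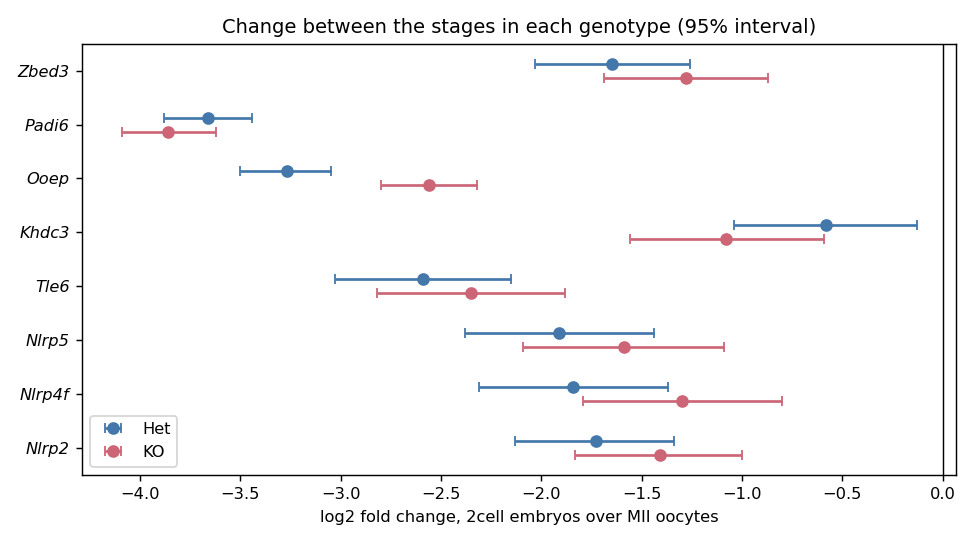
Log2 fold change from MII oocytes to 2cell embryos (x axis) with its 95% interval for each gene (y axis) in Het (blue) and KO (red) libraries. All 16 values lie below 0, Padi6 is the lowest in both genotypes at -3.66 and -3.86, and Ooep has intervals that do not overlap between the genotypes.

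The difference between these changes was tested directly as the interaction of genotype and stage. It passed for Ooep, whose log2 difference was 0.72 (SE 0.156, limma adjusted p = 0.00919, 1.64-fold), where 3.67% of all genes passed as higher. Ooep was 1.15-fold higher in KO MII oocytes and 1.88-fold higher in KO 2cell embryos. The call was lost without KO library D of the MII oocytes (0.58, limma adjusted p = 0.0232) and with quantile normalization (0.58, limma adjusted p = 0.102). Without Het MII libraries A and C it was 0.72 (limma adjusted p = 0.0331).

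The other 7 members did not pass the interaction test. The values were 0.54 for Nlrp4f (interval -0.14 to 1.22), 0.36 for Zbed3 (-0.20 to 0.92), 0.32 for Nlrp2 (-0.25 to 0.89), 0.31 for Nlrp5 (-0.37 to 1), 0.24 for Tle6 (-0.40 to 0.88), -0.20 for Padi6 (-0.52 to 0.12) and -0.49 for Khdc3 (-1.16 to 0.17). The interval of Padi6 is within 1.5-fold in both directions. The call of Khdc3 in MII oocytes and its absence in 2cell embryos is therefore not shown to be a difference between the stages.

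Partners and paralogs of the complex were counted alongside the members (43 listed, 39 in the table). In MII oocytes 27 were tested, none was higher and Nlrp4b was lower in KO (log2 fold change -0.96, SE 0.255, limma adjusted p = 0.0244), where 5.43% and 7.39% of all genes were. In 2cell embryos 31 were tested, of which 4 were higher and 4 lower in KO, against 8.69% and 9.34% of all genes. The 6 largest were Uhrf1, a protein that recruits maintenance DNA methylation (1.44), Khdc1c (0.98), Nlrp9c (-0.86), the actin-severing Cfl2 (-0.93), Dppa5a, a KH-domain gene expressed in early embryos (-1.39), and Nlrp4g (-1.64), which shares sequence with Nlrp4f. Between the stages 9 of 31 rose and 10 fell in Het libraries, and 10 rose and 11 fell in KO libraries. Of all tested genes, 39.4% rose in each genotype, and 26.7% fell in Het and 25.6% in KO libraries.

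Of 22 other maternal-effect genes, 1 was higher and 1 lower in KO MII oocytes, where 5.43% and 7.39% of all genes were. Smarca4, a chromatin remodeller, had a log2 fold change of 0.59 (SE 0.143, limma adjusted p = 0.0172), and Dppa3, which protects maternal DNA methylation, one of -0.67 (SE 0.17, limma adjusted p = 0.0209). In 2cell embryos 4 were higher and none lower in KO, where 8.69% and 9.34% of all genes were. They were Sox2 (1.44), Tet3 (0.91), Pou5f1 (0.76) and Hsf1 (0.69). Sox2 and Pou5f1 encode pluripotency factors, Tet3 an enzyme that oxidises methylated cytosine, and Hsf1 a heat shock factor. From MII to 2cell, 13 of the 22 fell and 3 rose in Het libraries, and 10 fell and 3 rose in KO libraries. Of all genes, 26.7% fell in Het and 25.6% in KO libraries, and 39.4% rose in each.

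Among 5272 other genes with a mean of at least 1 FPKM, the profiles most like the mean profile of the members over the 19 libraries were those of Atg5 and Oas1e (Pearson's r = 0.994 each) and of Dap3, Txnip and Suv39h2 (0.993 each). These 19 points share 2 stages and 4 groups, and no p is given. The members themselves correlated with this profile, which contains them, at 0.749 (Khdc3) to 0.99 (Padi6).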

How the data were processed

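RNA-seq was measured in 19 libraries prepared with a SMART-seq v4 kit. Per the labels, the authors used Trim Galore 0.4.1, HISAT2 2.0.5 and GRCm38. The labels name a NovaSeq and the methods a HiSeq X sequencer. The deposited table, named as if it held raw counts, holds FPKM that the authors computed in SeqMonk, and 0 columns were left unused. The members and gene lists were chosen with earlier results of these data known.

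Each library was given a scaling factor, a trimmed mean of its log ratios (trimming 30% of ratios and 5% of levels). The factors were computed anew for each set of libraries fitted. A gene was tested if 5 MII or 4 2cell libraries (4 of all 19 for stages and interaction) reached 0.1 FPKM. Tests were run in limma 3.58.1 (R 4.3.3, variance trend) on log2(FPKM + 0.1), which understates changes of low genes. A call required an adjusted p (Benjamini-Hochberg) below 0.05 and a difference above 1.5-fold. All 8 members passed the filter, and all are named. Up to 6 called genes per further list and stage were named, and the 5 most similar profiles. Exact two-sided permutation tests of single levels used 252 MII or 126 2cell splits, and their smallest p is 0.00794 (16 tests, not adjusted).

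The gene gate of the scaling was changed after member results had been seen. The first version used genes at 0.1 FPKM in both libraries and called Zbed3 in 2cell embryos (adjusted p = 0.0477). It missed a factor planted in a copy of deposited values by more than the tolerance then set. The gate therefore became a geometric mean of 0.1 FPKM, and the tolerance was widened. Under that gate Zbed3 had an adjusted p of 0.0513. One recovery bar of the simulated test was lowered after simulated 2cell data had not passed it. The transcript rule for 3′ ends was changed from the longest 3′UTR to the longest coding transcript after a Tle6 window had been seen, and the GC plot was chosen after seeing values.

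Depth was estimated from the steps between low values of 9238 genes with 1 transcript. Intervals of limma cover the spread between libraries. GC trends were loess fits (span 0.5). Coordinates and 3′UTRs are from GENCODE vM21, and deposited ends lie 1 base beyond it for 97.1% of genes. Alternatives were other scalings, pseudocounts, filters, thresholds, samples in the fit, a GC correction, a replicate block and leaving out each library. Python 3.11.15, numpy 2.4.6, pandas 2.3.3 and matplotlib 3.10.9 were used.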

Additional observations from a re-analysis of the deposited data

Results flagged for a closer look

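The interaction of genotype and stage for Ooep, 0.72 on the log2 scale (KO over Het in 2cell embryos minus KO over Het in MII oocytes, limma adjusted p = 0.00919), was singled out because the genotype difference itself differed between the stages by a test. Ooep was higher in 4 of 4 KO 2cell libraries than in any Het 2cell library, and in 3 of 5 KO MII libraries than in any Het MII library. No library stood apart from its group by Dixon's test in any of the 32 combinations of member and group, where about 1 in 20 would by chance.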

How the results depend on the processing

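The limits of these results are the 4 or 5 libraries of a group, the unknown origin of replicates, the trend with GC content and the few fragments of Nlrp2 and Tle6 in 2cell embryos. In MII oocytes, 1 member was called higher. The count was 3 with the values as deposited, scaling to the column sum, quantile normalization or no fold threshold, and 0 with a pseudocount of 1, the GC trend removed, the replicate block with the GC trend removed, all 19 libraries in 1 fit, or without Het libraries A and C (added after seeing the data). It ranged from 0 to 2 when each library was left out. The count called lower was 0, 1 without a fold threshold, and 0 to 1 with a library left out. In 2cell embryos 1 member was called higher. The count was 2 with the values as deposited, quantile normalization, all 19 libraries in 1 fit, a mean filter of 1 FPKM or the first version of the scaling (added after seeing the data), 3 with scaling to the column sum, 0 with the replicate block and the GC trend removed (Ooep 0.97, adjusted p = 0.0518 in limma, against 0.91 without these 2 changes), and 1 to 2 with a library left out. In the interaction 1 was called higher, 0 with quantile normalization and 0 to 1 with a library left out. Directions turned for the interaction of Zbed3 with quantile normalization (-0.14), for Khdc3 in 2cell embryos with the GC trend removed (-0.26), also with the replicate block (-0.17), and for leaving out single libraries in Khdc3 in 2cell embryos (-0.10 to 0.24) and Nlrp5 in MII oocytes (-0.04 to 0.16). None of these values passed the test. The cause was not tested. Of 930 values of single members under alternatives, 875 kept their direction and their side of the threshold, 12 lost and 35 gained a call, and 8 turned. From MII to 2cell, 7 members fell in Het and 8 in KO libraries, and the counts were 6 to 8 and 7 to 8 under the alternatives. They were lowest with a mean filter of 1 FPKM, which left Nlrp2 untested, and in KO libraries also with a pseudocount of 1. In the permutation tests of single levels, p was under 0.05 for 4 members at MII and 3 at the 2cell stage, and the same counts were found with scaled FPKM. The permutation test was not run over all genes. In limma, a different test on scaled log2 values, an unadjusted p was under 0.05 for 3899 of 10515 and 4811 of 14051 genes. With a library left out the member counts of the permutation tests were 4 to 5 and 2 to 3. The MII count was 5 without KO library D, and the 2cell count was 2 without KO library B or Het library B, C, D or E.

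Over all genes, 1348 were called in MII oocytes and 2534 in 2cell embryos. A pseudocount of 1 gave 485 and 1164 (5241 and 5264 in place of 10422 and 10256 between the stages), and a mean of at least 1 FPKM gave 746 and 1483 (3966, 3887 and, for the interaction, 659 in place of 1228). No fold threshold gave 2237 in MII oocytes. Without Het libraries A and C, 533 were called in MII oocytes. The share called higher was 42.4% in MII oocytes and 48.2% in 2cell embryos, 57.1% and 52.3% with the values as deposited, and 69.9% and 80.9% with scaling to the column sum, which moved the median of all genes by 0.15 and 0.26. Letters did not pair the libraries: same-lettered libraries correlated at -0.18 to 0.12, and of the Het libraries with a KO library of their letter, 1 of 5 (MII) and 1 of 4 (2cell) correlated best with it. With the replicate block, 808 genes in MII oocytes and 390 in 2cell embryos were called, and the members called numbered 1 in each. With the block and the GC trend removed, limma called 0 genes in 2cell embryos, with 3324 at an unadjusted p under 0.05.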
